A study of Mus musculus with 106 samples.

Results

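The 9 genes described here are expressed by cells of the B lineage: Cd79a, Cd79b, Ms4a1, Pax5, Cr2, Fcer2a, Vpreb1, Igll1 and Rag1. They were taken by symbol from the deposited read counts, where all 9 were listed in each of the 4 count tables, out of 19171 genes common to the tables. In mammals B cells arise in the bone marrow, where Rag1 cuts the immunoglobulin loci for V(D)J recombination and the surrogate light chain, built from Vpreb1 and Igll1, tests each new heavy chain. Cells that pass this step carry a B cell receptor whose signal is transmitted by the Cd79a and Cd79b chains, and they settle in the spleen, the lymph nodes and the lymphoid follicles of the gut. There they carry CD20 (Ms4a1), the complement receptor CD21 (Cr2), which follicular dendritic cells also carry, and the low-affinity IgE receptor CD23 (Fcer2a), while the transcription factor Pax5 holds B lineage identity until the cells turn into antibody-secreting plasma cells.

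The study housed male mice of the C57BL/6J strain (given as C57BL/6 in some labels), 8 weeks old at the start, at 10 °C, 22 °C or 34 °C and sequenced RNA of 11 tissues. Mice of the cold set spent 5 days each at 18 °C and 14 °C and then 2 weeks at 10 °C, mice of the warm set spent 4 weeks at 34 °C, and each set had its own controls at 22 °C. For the tissues compared, the labels give an age of 11 weeks for the cold set and of 12 weeks for the warm set. Spleen, bone marrow, ileum, interscapular brown fat (iBAT), inguinal subcutaneous fat (ingSAT) and perigonadal visceral fat (pgVAT) were compared at 10 °C with 22 °C, and ileum and iBAT also at 34 °C with 22 °C, in 3 libraries per group, or 6 for bone marrow. The labels name no transgene and no drug. The cold and warm mice came from different breeders, so that for these tissues temperature was compared only within a set. A library of the cold set was a pool of 2 mice, except that each bone marrow and spinal cord library came from 1 mouse. The p-values measure the spread between these libraries.

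The 54 libraries compared held 4262403 to 52402604 counts (median 17683694). Values are given as CPM, counts relative to the library size after scaling by the trimmed mean of M values (TMM). The 4 tables were scaled separately. A gene was tested where its average log2 CPM in the comparison was above 0, and it was called changed at an unadjusted p of at most 0.05 with a fold change above 1.5. Benjamini-Hochberg adjusted p-values from the same edgeR quasi-likelihood test are given beside the calls. The labelled tissues were checked by marker sums: adipocyte genes summed to at least 9505 CPM in every fat library and enterocyte genes to at least 8411 CPM in every ileum library. In pgVAT at 10 °C, 2 of 3 libraries were rich in epididymis transcripts, which is described with that tissue.

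The promoters of Vpreb1 and Igll1 are printed because these were the members called changed in bone marrow, and because they are neighbours. Igll1 lies at chr16:16860671-16863985 and Vpreb1 at chr16:16868403-16870843 (GRCm38, both on the minus strand), with 4417 bases between them. The sequences are the 250 bases before each RefSeq start (GRCm38.p6), read 5′ to 3′ on the gene's strand. Capitals mark CAGGTG on either strand, an E-box of the kind bound by E2A proteins, or CCCNNGGG, the core of the motif of the early B cell factor Ebf1.
Vpreb1 (chr16:16869256-16869505, minus strand): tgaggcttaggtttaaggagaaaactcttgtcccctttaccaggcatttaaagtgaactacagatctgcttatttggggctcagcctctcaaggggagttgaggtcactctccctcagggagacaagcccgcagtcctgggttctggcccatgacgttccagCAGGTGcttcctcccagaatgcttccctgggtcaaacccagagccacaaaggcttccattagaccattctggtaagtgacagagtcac
Igll1 (chr16:16863986-16864235, minus strand): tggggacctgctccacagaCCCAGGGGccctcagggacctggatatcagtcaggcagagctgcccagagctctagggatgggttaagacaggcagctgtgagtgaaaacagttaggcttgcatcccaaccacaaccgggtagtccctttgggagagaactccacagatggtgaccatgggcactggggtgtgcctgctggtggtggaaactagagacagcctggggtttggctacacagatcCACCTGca
CAGGTG stood at bases -88 to -83 from the start of Vpreb1 and, on the other strand, at -8 to -3 from that of Igll1. It was present in 17.2% of 32851 RefSeq promoters of the same length. CCCNNGGG stood at -231 to -224 of Igll1 and was present in 11.8% of the promoters. Neither window held the octamer ATGCAAAT, which 1.6% of promoters held. These matches describe letters, not bound sites. The start of Vpreb1 in RefSeq lies inside the span that GENCODE gives the gene.

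At 22 °C the levels of the 9 genes fell into a pattern highest in spleen and a pattern highest in bone marrow. Cd79a, Cd79b, Ms4a1, Cr2, Fcer2a and Pax5 were highest in spleen, and for each of these 6 genes every spleen library was above every library of the next tissue. In spleen Cd79a stood at 155 ± 20.2 CPM, Cd79b at 591 ± 44.7 CPM, Ms4a1 at 762 ± 29.1 CPM and Cr2 at 864 ± 50.9 CPM (SD, n = 3). Bone marrow had the next highest mean for 5 of them, with 112 ± 15.3 CPM for Cd79a and 78.5 ± 13.4 CPM for Ms4a1 (SD, n = 6). For Ms4a1, Fcer2a and Pax5 its range overlapped that of the following tissue. The CD21 gene Cr2 broke this order of means. Ileum (37.7 ± 41.1 CPM) and ingSAT (37.5 ± 32.5 CPM; SD, n = 3) had higher means than bone marrow (12.9 ± 2.77 CPM; SD, n = 6). The ranges of these 3 tissues overlapped. Bone marrow libraries were made with another kit and sequenced at another centre than those of spleen, ileum and fat of the cold set. Tissue and kit therefore cannot be told apart in the place of bone marrow.

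The precursor genes were measured at a level mainly in bone marrow. Vpreb1 stood there at 9.17 ± 1.28 CPM, Igll1 at 23.3 ± 5.56 CPM and Rag1 at 128 ± 26.3 CPM (SD, n = 6). In the next tissue in order, Vpreb1 was at 0.14 CPM (liver), Igll1 at 0.0817 CPM (spinal cord) and Rag1 at 1.39 CPM (spleen). In the nervous system single members were counted at low levels. The hypothalamus had 6.34 ± 1.53 CPM of Cr2 (SD, n = 3) beside 0.223 CPM of Cd79a. Brain at 22 °C had 1.66 ± 0.418 CPM of Pax5 in the cold set, against 0.176 ± 0.0527 CPM in the warm set (SD, n = 3). Cr2 was at 1.58 and 0.375 CPM in brain of the cold and the warm set, and at 2.15 and 0.0214 CPM in iBAT. Kit and table differ between the sets, and the cause of the gap was not tested. Per kilobase of exon, Cd79b was the most abundant member in spleen, at 413 CPM per kb against 123 CPM per kb for Ms4a1, and also in bone marrow, at 122 CPM per kb against 76.7 CPM per kb for Cd79a. In bone marrow the levels per kb of Rag1 (19.4), Igll1 (10.8) and Vpreb1 (7.65) lay above those of Pax5 (2.41) and Cr2 (1.59).

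**Figure D1:**
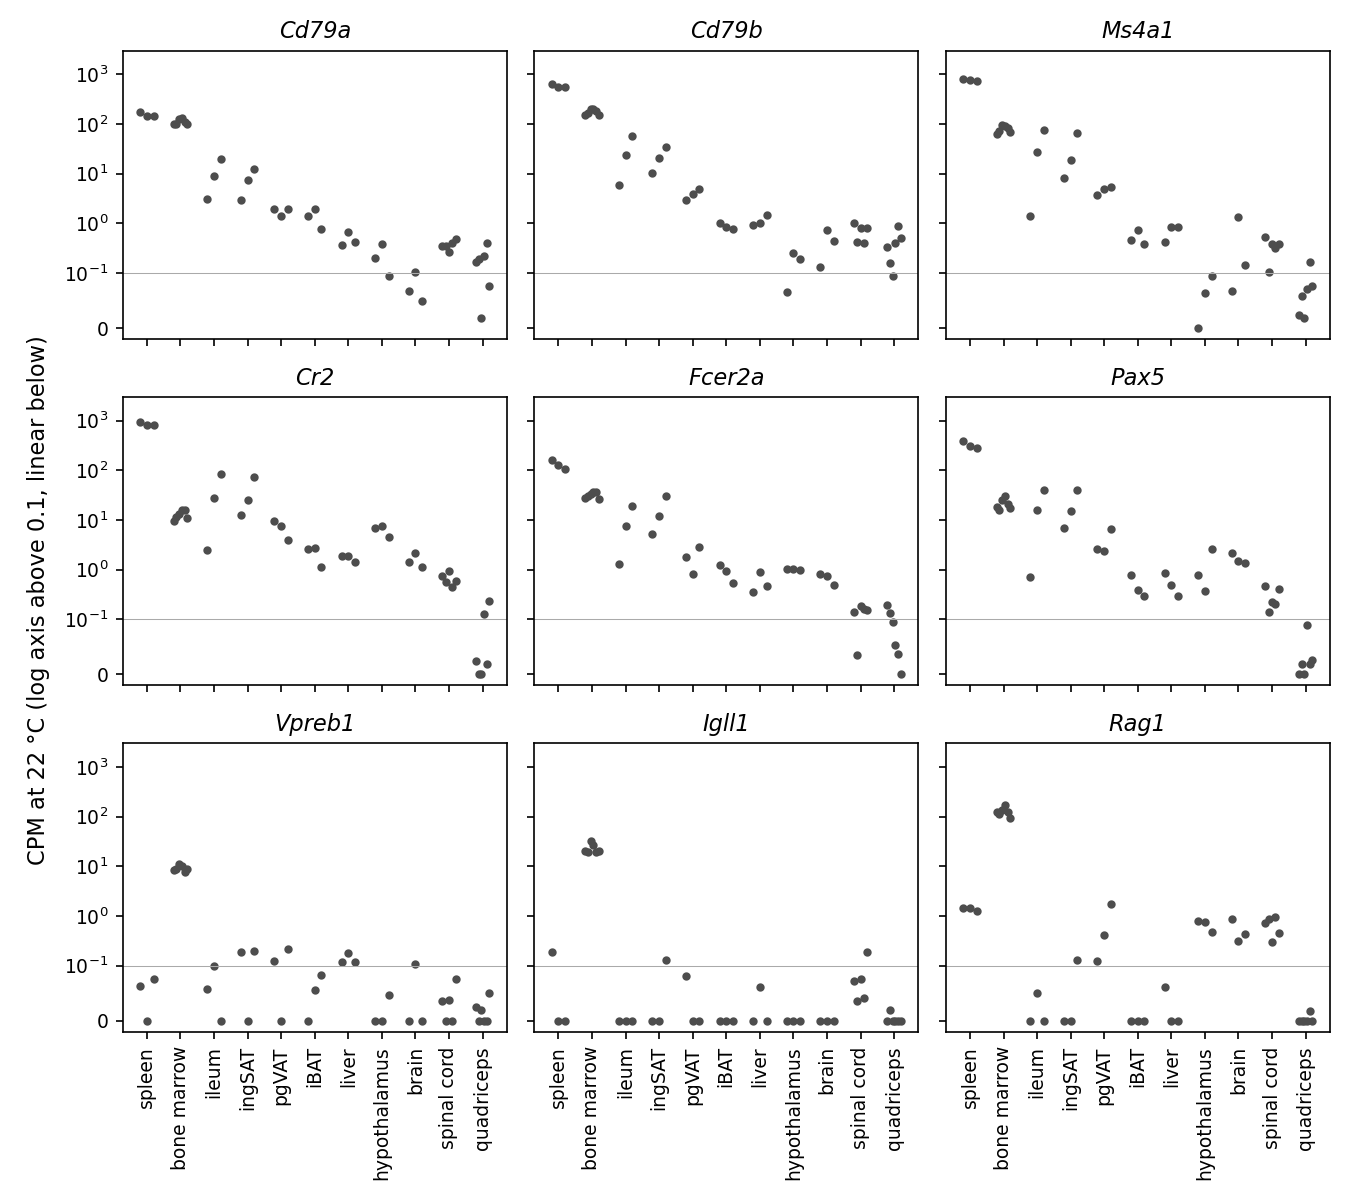
CPM of each of the 9 genes in the 22 °C libraries of the cold set (axis logarithmic above 0.1 and linear below), by tissue, with 1 point per library. For quadriceps all 6 libraries at 22 °C are shown, whose set the labels do not give. Cd79a, Cd79b, Ms4a1, Cr2, Fcer2a and Pax5 are highest in spleen, and Vpreb1, Igll1 and Rag1 stand apart in bone marrow.

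In spleen none of the 7 members tested was called at 10 °C, in a comparison where 2.68% of all genes tested were called. Of these 7 genes, 6 were higher on average at 10 °C by 1.10-fold to 1.38-fold, and Rag1 was lower. The edgeR quasi-likelihood test gave adjusted p-values of 0.485 to 0.588 over the 7 genes, 2 of the 7 had an unadjusted p under 0.05, and neither edgeR's exact test nor DESeq2 called any. In bulk RNA of this kind, fewer cells of a type and less RNA per cell cannot be told apart.

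Of the receptor chains, Cd79a was at 178, 144 and 142 CPM in the 22 °C libraries and at 177, 185 and 174 CPM at 10 °C. The groups overlapped through the first control library, and the log2 difference was 0.20 ± 0.10 (SE). Cd79b, at 562 to 643 CPM at 22 °C and 613 to 695 CPM at 10 °C, overlapped as well. CD23 showed the largest difference: Fcer2a was at 160, 127 and 105 CPM at 22 °C and at 168, 194 and 178 CPM at 10 °C. Every cold library was above every control, with a log2 difference of 0.46 ± 0.15 (SE) and an adjusted p of 0.485 (edgeR). Leaving out the first control library brought it to 0.65, past the fold limit.

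The CD20 gene Ms4a1 was at 792, 759 and 734 CPM at 22 °C and at 1124, 921 and 802 CPM at 10 °C. These groups did not overlap either, with a log2 difference of 0.32 ± 0.12 (SE) and an adjusted p of 0.485 (edgeR). Of all genes tested, 7.25% had every cold library above every control, against 2 of the 7 members. Cr2 was at 833 to 923 CPM at 22 °C and at 866 to 1261 CPM at 10 °C, and Pax5 at 284 to 382 CPM and 336 to 411 CPM, and both overlapped. Rag1, low in spleen, was at 1.28 to 1.46 CPM at 22 °C and at 0.946 to 1.22 CPM at 10 °C, a log2 difference of -0.39 ± 0.25 (SE) with all cold libraries below the controls, as in 8.46% of all genes. Vpreb1 and Igll1 were at most at 0.231 CPM and were not tested.

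Among the other B lineage genes in spleen, 0 of 22 tested were called, with a median log2 difference of 0.16 beside -0.0042 over all genes tested, and 0 of 5 other precursor genes, 0 of 12 plasma cell genes and 0 of 6 germinal centre genes were called. Markers of other cells differed between the groups in these libraries. The 10 neutrophil genes summed to 374 to 752 CPM at 22 °C and to 107 to 133 CPM at 10 °C, and 9 of the 9 tested were called lower. Of 5 stroma genes Chst4 (0.72), a sulfotransferase of high endothelial venules, was called higher. The 14 T cell genes summed to 757 to 948 CPM at 22 °C and to 767 to 956 CPM at 10 °C. The part of the neutrophil difference in the B cell values was not tested.

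In bone marrow the precursor genes of the surrogate light chain rose at 10 °C. Vpreb1 was 1.94-fold and Igll1 1.51-fold higher, and these 2 of 9 members were called higher, against 0.647% of all genes tested. All 9 members were higher on average, by 1.17-fold to 1.94-fold, and 6 of the 9 passed an adjusted p under 0.05 in this direction, against 7.33% of all genes.

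Vpreb1 was at 7.78 CPM in the lowest, 8.79 CPM in the median and 11.3 CPM in the highest of the 22 °C libraries, and at 15.03, 17.1 and 22.7 CPM at 10 °C. The groups did not overlap, as in 2.67% of all genes in this direction, and the log2 difference was 0.96 ± 0.12 (SE; adjusted p = 0.00176, edgeR). Igll1 was at 19.6, 20.2 and 33.04 CPM at 22 °C and at 29.6, 33.7 and 43.7 CPM at 10 °C. A control library reached into the cold range, and the log2 difference of 0.59 ± 0.13 (SE; adjusted p = 0.00903, edgeR) lay just past the fold limit, which it missed when any of 6 of the 12 libraries was left out. For Vpreb1, 23.6% of its stretches of 50 bases occur in other genes as well, 18.8% in Vpreb2 and 4.77% in Top3b, so that reads could be shared. Vpreb2 itself was counted at 0.324 to 0.647 CPM at 22 °C and at 0.892 to 1.97 CPM at 10 °C, below the limit for testing.

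Rag1 was at 95.1, 125 and 173 CPM at 22 °C and at 161, 168 and 217 CPM at 10 °C (lowest, median and highest). The ranges overlapped, and the log2 difference of 0.46 ± 0.11 (SE; adjusted p = 0.0132, edgeR) was under the fold limit. Of 6 other precursor genes tested, 2 were called higher. Dntt, which adds untemplated bases at V(D)J joints, went from 38.9 to 55.0 CPM at 22 °C to 67.0 to 94.6 CPM at 10 °C, a log2 difference of 0.75 ± 0.085 (SE; adjusted p = 0.00113, edgeR). Lef1, a transcription factor of early lymphocytes, went from 13.1 to 19.03 CPM at 22 °C to 24.3 to 27.9 CPM at 10 °C, a log2 difference of 0.71. In both genes every cold library was above every control. Rag2, the partner of Rag1, differed by 0.44 and Vpreb3 by 0.42 on the log2 scale, both with an adjusted p under 0.05 and a fold under 1.5.

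The receptor chains had smaller mean differences than the surrogate light chain, which were not tested against each other. Cd79a was at 98.1, 107 and 132 CPM at 22 °C and at 138, 144 and 172 CPM at 10 °C. Its groups did not overlap, and the log2 difference was 0.43 ± 0.085 (SE; adjusted p = 0.00555, edgeR). Cd79b, at 153 to 205 CPM at 22 °C and 190 to 243 CPM at 10 °C, differed by 0.31 ± 0.080 (SE; adjusted p = 0.0162, edgeR), with overlap. Neither reached the fold limit.

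The genes of mature B cells lay at the lower end. Ms4a1 was at 61.7, 77.7 and 95.4 CPM at 22 °C and at 87.6, 93.6 and 107 CPM at 10 °C, a log2 difference of 0.29 ± 0.096 (SE; adjusted p = 0.0479, edgeR). Fcer2a differed by 0.23 ± 0.088 (SE; adjusted p = 0.0814, edgeR) and Cr2 by 0.23 ± 0.13 (SE; adjusted p = 0.241, edgeR), and the ranges of both overlapped. Pax5 was at 15.9 to 29.8 CPM at 22 °C and at 23.2 to 34.1 CPM at 10 °C, with a log2 difference of 0.39 ± 0.14 (SE; adjusted p = 0.0599, edgeR).

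Ratios within a library, chosen after the values had been seen and given without a test, describe the same spread. Vpreb1 over Igll1 was 0.342 to 0.445 in the 22 °C libraries and 0.479 to 0.519 in the 10 °C libraries, without overlap. The 3 precursor genes over the 3 mature surface genes summed to a ratio of 1.12 to 1.55 at 22 °C and of 1.33 to 1.87 at 10 °C, with overlap.

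Of 19 other B lineage genes tested in bone marrow, 0 were called, and 9 had an adjusted p under 0.05 and were higher, with a median log2 difference of 0.21 over the list beside 0.013 over all genes. Named after their values were seen, they included Blnk (0.42), the adaptor below the receptor, and Pou2af1 (0.43), a B cell coactivator. Of 7 plasma cell genes tested, 0 were called. The 9 neutrophil genes counted there summed to 40442 to 58677 CPM at 22 °C and to 37430 to 39704 CPM at 10 °C, and the 7 erythroid genes to 9146 to 11602 CPM and 12002 to 15160 CPM, both without overlap, while the 12 T cell genes summed to 133 to 176 CPM and 155 to 175 CPM. An alternative added after the data were seen left the neutrophil genes out of the scaling and the fit. The log2 difference of Vpreb1 was again 0.96 and that of Igll1 0.59. Only the listed genes were dropped, so that this fit cannot tell what a change of cell mix would do. The part of neutrophils and erythroid cells in the B cell values was not tested.

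**Figure D2:**
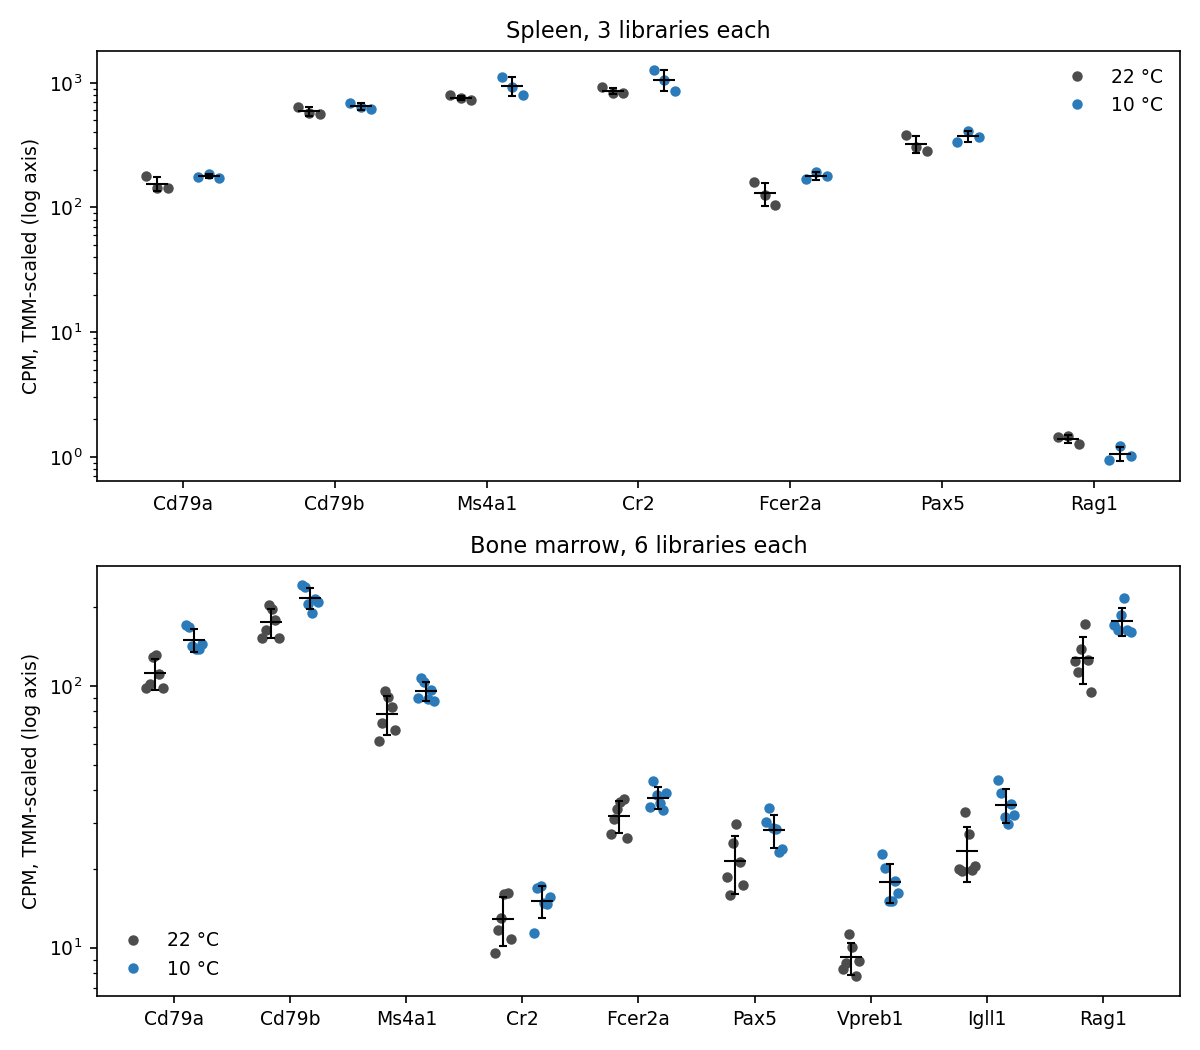
CPM of the members in each spleen and bone marrow library at 22 °C (grey) and 10 °C (blue) on a log axis, with 1 point per library, the group mean as a line and the SD as a bar. Vpreb1 in bone marrow is at 7.78 to 11.3 CPM at 22 °C and at 15.03 to 22.7 CPM at 10 °C without overlap, whereas Cr2 and Fcer2a in bone marrow overlap.

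In ileum at 10 °C the 6 members tested were all lower on average, by log2 differences of -0.43 (Ms4a1) to -0.95 (Pax5), and none was called, beside 2.71% of all genes. None had an unadjusted p under 0.05 by the edgeR quasi-likelihood test (adjusted p = 0.682 to 0.876), and neither edgeR's exact test nor DESeq2 called any. The spread between libraries of a group was larger than the difference between groups. The 6 members summed to 14.8, 111 and 293 CPM in the 22 °C libraries and to 11.8, 69.8 and 191 CPM in the 10 °C libraries, a 19.8-fold and a 16.2-fold range.

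All 6 genes put the libraries in the same order within each group. Cr2, for instance, was at 2.45, 27.7 and 82.8 CPM at 22 °C and at 1.72, 17.2 and 47.5 CPM at 10 °C, and Ms4a1 at 1.40, 27.2 and 75.8 CPM and at 2.26, 20.4 and 56.1 CPM. The 14 T cell genes followed this order with a narrower range, summing to 95.9, 152 and 191 CPM at 22 °C and to 93.3, 99.4 and 142 CPM at 10 °C. So did the 6 lymphoid stroma genes, with 33.2, 47.7 and 71.2 CPM and 31.2, 37.8 and 56.1 CPM. How much lymphoid follicle each pool of ileum held was not tested. The 95% interval of the log2 difference of Cr2 ran from -3.60 to 2.01 and that of Cd79a from -2.40 to 1.12. Without the third 22 °C library all 6 differences were positive, at 0.15 (Cd79a) to 0.85 (Ms4a1), and none was called. With the replicate number as a block 4 of 6 were called lower, beside 293 of 14081 genes in that fit, although the numbers were not taken as pairs.

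Of the other lists at 10 °C in ileum, 0 of 22 B lineage genes, 0 of 3 precursor genes, 0 of 6 germinal centre genes and 0 of 3 genes of the epithelium over follicles were called. Of 12 plasma cell genes 1 was called lower, Irf4 (log2 difference -0.63), a factor of plasma cells and activated lymphocytes. Of 14 T cell genes, 3 were called lower, Cd28 (-0.86), Cd3e (-0.64) and Cd4 (-0.61). Markers of other cells differed as well. The 5 enterocyte genes summed to 8411 to 9439 CPM at 22 °C and to 13820 to 15332 CPM at 10 °C, and Fabp2 (1.30) and Fabp6 (0.66), genes of intestinal lipid and bile acid binding, were called higher. The 12 plasma cell genes summed to 6492 to 7296 CPM and 4823 to 5943 CPM, and the 8 erythroid genes to 13.2 to 18.6 CPM and 25.5 to 39.3 CPM, also without overlap. Of 4 erythroid genes tested 2 were called higher, Hbb-bt (1.62) and Hba-a1 (1.35), and of 6 adipocyte genes Fabp4 (1.46) and Cidec (0.98). The part of these cells in the B cell values was not tested.

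In ileum at 34 °C the 6 members tested were again lower on average and none was called, beside 2.83% of all genes. The log2 differences ran from -1.76 (Fcer2a) to -2.43 (Ms4a1), with SE from 1.17 to 1.67. None had an unadjusted p under 0.05 by the edgeR quasi-likelihood test (adjusted p = 0.617 to 0.698), and neither edgeR's exact test nor DESeq2 called any.

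The wide errors came with a single 34 °C library. The 6 members summed to 245, 59.4 and 335 CPM at 22 °C and to 155, 5.25 and 6.03 CPM at 34 °C. In the second and the third 34 °C library Ms4a1 was at 0.0435 and 0.303 CPM and Cr2 at 0.218 and 0.0405 CPM, from 1 to 15 counts for Ms4a1, Cr2, Fcer2a and Pax5, while in the first library Ms4a1 was at 18.9 CPM and Cr2 at 20.9 CPM, inside the range of the controls. Without that first library all 6 members were called lower, by log2 differences of -4.44 to -7.76 (adjusted p = 0.170, edgeR). That fit called 659 of 13020 genes lower, and 0 genes had an adjusted p under 0.05. The library left out was the one with the highest values at 34 °C.

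Of the receptor chains, Cd79a was at 74.2, 15.8 and 99.8 CPM at 22 °C and at 46.0, 2.57 and 2.95 CPM at 34 °C, and Cd79b at 59.4, 16.002 and 75.0 CPM and at 38.4, 2.18 and 2.45 CPM. The 8 plasma cell genes counted in this table summed to 820 to 1204 CPM at 22 °C and to 860 to 1045 CPM at 34 °C, and 0 of 8 were called.

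With all libraries, in which none of the members was called, some genes of lymphoid follicles were called lower at 34 °C, in a comparison where 1.26% of all genes were. Among them were the germinal centre genes Mybl1 (-2.48) and S1pr2 (-1.68). Gp2 (-2.58), a receptor of the M cells over gut follicles, was called lower, while 1 of 3 follicle epithelium genes was higher on average. Among 4 stroma genes Madcam1 (-1.58), the homing ligand of gut vessels, was called lower and 1 gene was higher on average. Bach2 (-0.86) was called lower among 19 other B lineage genes, of which 0 were higher on average. Each of the called genes named had an adjusted p of 0.594 (edgeR). The 12 T cell genes summed to 154, 65.1 and 154 CPM at 22 °C and to 107, 72.4 and 58.0 CPM at 34 °C, with 0 of 12 called, and the stroma genes to 54.7, 28.6 and 67.4 CPM and 40.8, 24.8 and 27.2 CPM. The part of follicle content in the difference was not tested.

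**Figure D3:**
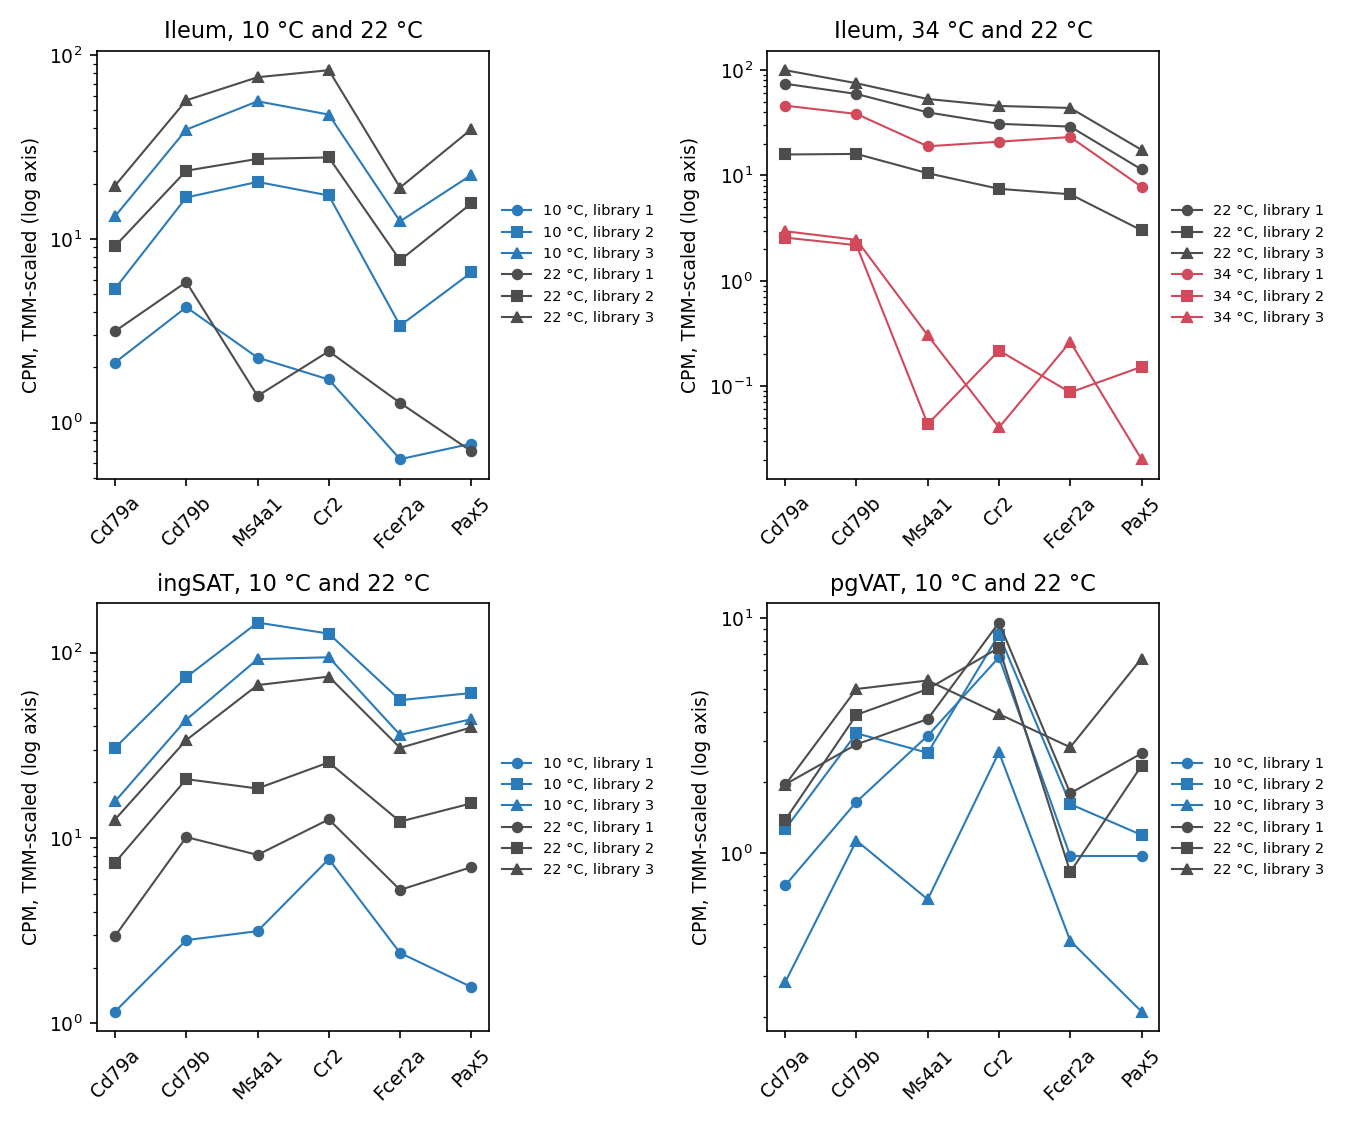
CPM of the 6 members highest in spleen, in each ileum, ingSAT and pgVAT library on a log axis. Colour gives the temperature, and a line joins the points of a library. In each ileum and ingSAT group the sum of the 6 members spans at least 5.59-fold, and at 34 °C 2 ileum libraries lie far below the third.

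In ingSAT at 10 °C the 6 members tested were higher on average, by log2 differences of 0.77 (Pax5) to 1.36 (Ms4a1) with SE from 0.93 to 1.18, and none was called, beside 16.3% of all genes. None had an unadjusted p under 0.05 by the edgeR quasi-likelihood test (adjusted p = 0.478 to 0.661), and neither edgeR's exact test nor DESeq2 called any. The 6 members summed to 46.0, 99.9 and 257 CPM at 22 °C and to 18.8, 492 and 325 CPM at 10 °C. The first cold library was the lowest of the 6 libraries and the other cold libraries the highest. Without it, Cd79a (1.58), Cd79b (1.43) and Ms4a1 (1.92) were called higher, with adjusted p of 0.135 to 0.181 (edgeR). That fit called 1201 of 13987 genes higher.

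Single genes repeated this order. Cr2 was at 12.6, 25.6 and 74.2 CPM at 22 °C and at 7.70, 127 and 94.3 CPM at 10 °C, and Pax5 at 6.97, 15.4 and 39.5 CPM and at 1.57, 60.5 and 43.7 CPM. All 6 members ranked the libraries alike within each group. Vpreb1, Igll1 and Rag1 were at 0 to 0.719 CPM.

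The inguinal fat pad holds a lymph node. T cell genes moved with the B cell genes in both groups, and lymph node stroma genes as a sum at 10 °C only. The 14 T cell genes summed to 86.2, 121 and 203 CPM at 22 °C and to 28.5, 418 and 181 CPM at 10 °C, which put the libraries in the order of the B cell sum in both groups. The 6 stroma genes summed to 36.2, 33.4 and 29.7 CPM at 22 °C and to 12.5, 76.2 and 32.3 CPM at 10 °C, and followed the order at 10 °C only. Glycam1, a product of the high endothelial venules of lymph nodes, was at 8.40, 8.43 and 4.81 CPM at 22 °C and at 0.497, 22.4 and 7.32 CPM at 10 °C, and the homing chemokine gene Ccl21a at 12.5, 11.4 and 8.83 CPM and at 2.40, 25.2 and 8.21 CPM. Cd3e was at 3.34, 4.82 and 9.03 CPM and at 1.08, 17.98 and 7.02 CPM, while Cxcl13, the chemokine of B cell follicles, was at 12.2, 10.6 and 14.2 CPM and at 9.11, 23.9 and 14.5 CPM, and Ccl19, the chemokine of the T cell zone, was at 1.52 to 2.20 CPM and 0.331 to 3.81 CPM. Of the tested genes of these lists, 0 of 14 and 0 of 4 were called. The part of lymph node tissue in the B cell values of each fat library was not tested.

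Of the other lists in ingSAT, 0 of 22 B lineage genes were called, with a median log2 difference of 0.84 beside -0.0095 over all genes. Among 12 plasma cell genes Jchain (1.19), the joining chain of secreted IgA and IgM, was called higher and Sdc1 (-1.30) and Xbp1 (-0.70) were called lower, genes that other cells of fat also express. S1pr2 (-0.80) was called lower among 4 germinal centre genes. The 6 macrophage genes had a median log2 difference of -0.93 and 5 of 6 were called lower, from -0.65 (Cd163) to -1.05 (Csf1r). Of 5 neutrophil genes tested Prtn3 (-1.87) was called lower, and both brown adipocyte genes, Ucp1 (7.35) and Cidea (2.69), were called higher. The part of these cells in the B cell values was not tested.

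**Figure D4:**
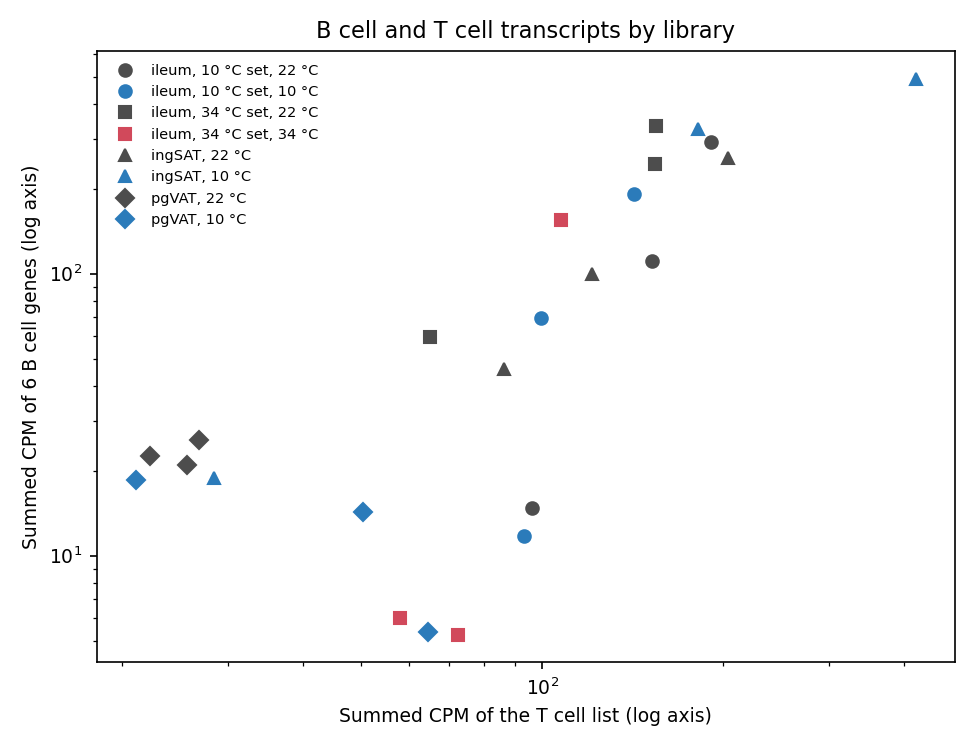
Sum of the 6 members highest in spleen against the sum of the T cell genes in each library of ileum, ingSAT and pgVAT. Both are in CPM on log axes. The 10 °C ingSAT library with the lowest B cell sum (18.8 CPM) also has the lowest T cell sum (28.5 CPM) of that tissue, and that with the highest (492 CPM) the highest (418 CPM).

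In pgVAT the libraries must be read with their epididymis content. The 4 epididymis genes summed to 2578, 870 and 573 CPM in the 22 °C libraries and to 15841, 2.39 and 19591 CPM at 10 °C, and the 6 adipocyte genes summed to 12841 and 9505 CPM in the first and the third cold library, against 20685 to 32611 CPM in the other 4. With all libraries, the 6 members tested were lower on average at 10 °C and 1 was called lower, beside 3.47% of all genes called lower. That gene was Pax5, at 2.65, 2.35 and 6.72 CPM at 22 °C and at 0.972, 1.19 and 0.212 CPM at 10 °C, a log2 difference of -2.26 ± 0.77 (SE; adjusted p = 0.593, edgeR). Without the first and the third cold library, the difference of Pax5 was -1.65, none was called, and Cr2 turned from -0.23 to 0.28. That fit has 1 library at 10 °C, which is assumed to vary like the controls, so that the missing call says nothing about stability.

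Every cold library was also below every control for Cd79a, at 1.96, 1.38 and 1.95 CPM against 0.729, 1.26 and 0.283 CPM, and for Ms4a1, at 3.72, 4.98 and 5.42 CPM against 3.16, 2.67 and 0.636 CPM. With Pax5 these were 3 of the 6 members, beside 6.78% of all genes. Cr2 was at 9.56, 7.47 and 3.90 CPM at 22 °C and at 6.80, 8.50 and 2.68 CPM at 10 °C, and overlapped. Of 20 other B lineage genes tested, 6 were called lower, most of all Blk (-2.03), a kinase below the B cell receptor, with an adjusted p of 0.593 (edgeR). The 14 T cell genes summed to 22.2 to 26.9 CPM at 22 °C and to 50.3, 21.1 and 64.5 CPM at 10 °C. The first and the third of these cold libraries were those rich in epididymis transcripts. Of 9 T cell genes tested, 3 were higher on average, with a median log2 difference of -0.16 over the 9. Among the 3, Tcf7 (2.72) and Lat (1.69) were called higher. Cd3e, a chain of the T cell receptor complex, was at 0.817 to 0.969 CPM at 22 °C and at 0.353 to 0.583 CPM at 10 °C. Of 7 plasma cell genes Derl3 (3.51) and Sdc1 (2.54) were called higher. The stroma genes summed to 16.3 to 18.4 CPM and 8.60 to 30.6 CPM, with Glycam1 at 0.368 to 0.434 CPM at 22 °C and at 0.0486 to 0.562 CPM at 10 °C.

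iBAT held few transcripts of the members. At 10 °C 2 members could be tested and none was called, beside 13.2% of all genes. Cd79a was at 1.40, 1.90 and 0.750 CPM at 22 °C and at 0.692, 1.15 and 1.46 CPM at 10 °C (log2 difference -0.28 ± 0.43, SE), and Cr2 at 2.65, 2.68 and 1.12 CPM and at 3.06, 1.77 and 2.48 CPM (0.23 ± 0.37, SE). Both overlapped, neither had an unadjusted p under 0.05 by the edgeR quasi-likelihood test, and neither edgeR's exact test nor DESeq2 called any. The 6 members summed to 3.83 to 7.56 CPM at 22 °C and to 5.36 to 6.86 CPM at 10 °C, and the T cell genes to 6.71 to 9.51 CPM and 5.66 to 7.66 CPM. The epididymis genes were at 0 in the 3 controls and summed to 2.78 to 30.8 CPM at 10 °C. Among the other lists Cd180 (0.82), a receptor of B and myeloid cells, and Prdm1 (1.09) were called higher, and Arpp21 (-1.16), Bcl6 (-1.11) and Sdc1 (-1.03) lower, out of 10 B lineage, 1 precursor, 6 plasma cell and 3 germinal centre genes tested.

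In iBAT at 34 °C Cd79b was the only member tested, and it was called higher, beside 12.2% of all genes called higher. It was at 0.404, 0.445 and 0.383 CPM at 22 °C, from 11 to 15 counts a library, and at 2.14, 1.20 and 1.02 CPM at 34 °C, from 35 to 91 counts. The groups did not overlap, as in 24.1% of all genes in this direction, and the log2 difference was 1.82 ± 0.39 (SE; adjusted p = 0.0153, edgeR). An adjusted p under 0.05 was reached by 13.5% of all genes in this direction. Cd79b passed the limit on low values through the 34 °C libraries, and without the first of these it fell below that limit. Its partner chain Cd79a was at 0.119 to 0.478 CPM at 22 °C and 0.351 to 0.800 CPM at 34 °C, and the remaining members were at most at 0.471 CPM in any library.

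The 6 members together summed to 0.711 to 1.29 CPM at 22 °C and to 1.55 to 4.17 CPM at 34 °C in this tissue. Of 7 other B lineage genes tested, 4 were called higher: Ebf1 (0.78), also a factor of fat cell precursors, Btk (1.22), also a kinase of myeloid cells, Blnk (0.76) and Bach2 (0.96). Of 5 plasma cell genes Prdm1 (1.60) and Xbp1 (0.75) were called higher and Irf4 (-0.70) lower. The T cell genes summed to 2.76 to 8.40 CPM at 22 °C and 4.42 to 9.65 CPM at 34 °C, with overlap, and the stroma genes to 1.84 to 2.63 CPM and 1.85 to 3.93 CPM, with Glycam1 and Ccl21a at 0 in all 6 libraries. The 6 macrophage genes summed to 79.2 to 139 CPM at 22 °C and to 145 to 212 CPM at 34 °C, without overlap. All 6 had positive differences (median 0.56), and Cd68 (1.21), a lysosomal protein of macrophages, was called higher. The brown adipocyte genes summed to 8840 to 11799 CPM at 22 °C and to 4035 to 5367 CPM at 34 °C. The part of these cells in the value of Cd79b was not tested.

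A direct test over the 5 tissues of the cold set in the largest table asked whether the 10 °C effect differed between tissues. It covered the 6 members highest in spleen. None passed, with unadjusted p-values of 0.352 (Cd79a) to 0.715 (Cr2) and adjusted p-values of 0.530 to 0.807 (edgeR quasi-likelihood), beside 8.16% of all genes that passed an adjusted p of 0.05. The positive means in spleen and ingSAT and the negative means in ileum and pgVAT were therefore not shown to differ for these genes. Bone marrow stood in another table and did not enter this test.

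**Figure D5:**
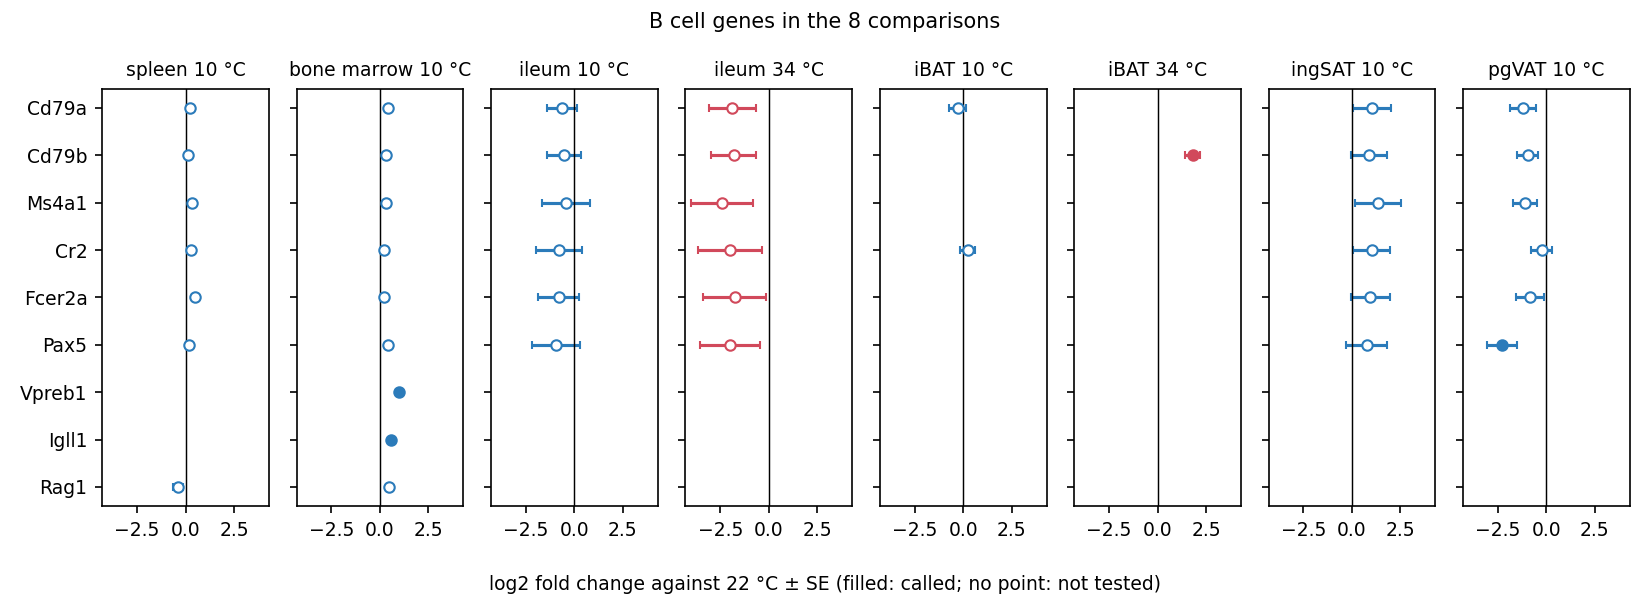
Log2 difference between the test temperature and 22 °C for each member tested in each comparison, with the standard error as a bar (smaller than the point in most of spleen and bone marrow). Bone marrow members lie at 0.23 to 0.96 with short bars, and those of ileum and ingSAT have bars of 0.75 to 1.67.

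Likeness of pattern was measured as Pearson's r of log2 CPM, as a description only. The first set was the 48 libraries of the largest table, which differ in tissue and depth, and 15934 genes. There the genes most like Cd79a were Ccdc88b (0.963), Sept1 (0.963), H2-Ob (0.961), Il9r (0.960) and Rinl (0.959), with Cd79b at rank 9 (0.954). Over the 12 bone marrow libraries and 12524 genes, those most like Vpreb1 were Abcb4 (0.973), Ecd (0.971), Sox12 (0.967), Tbcd (0.966) and Dntt (0.964), with Igll1 at rank 35 (0.943).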

How the data were processed

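mRNA had been sequenced in 106 libraries. The deposited values are read counts per gene, made by the authors: per the labels, reads were aligned with STAR 2.5.3a to mm10, checked with Picard 1.141 and counted with HTSeq 0.6p1. Whether counting used strand is not given in the sources used here. Of 21647 Ensembl identifiers in the largest table, 21581 were given 1 symbol. Temperatures were read from sample titles, because the treatment text of the labels names 34 °C for every sample.

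Every gene of a table was fitted, for a given comparison with only that comparison's libraries, by edgeR 4.0.16 (R 4.3.3, TMM, quasi-likelihood test, Benjamini-Hochberg adjustment), after a filter of average log2 CPM above 0, without covariates. DESeq2 1.42.0, edgeR's exact test, other scalings and filters, and leaving out each library were alternatives. The scripts were tested on simulated data. All 9 members are named, and of each further list the called genes with the largest rise and fall, with exceptions stated; some results of these lists are not reported here. The members and lists were chosen with earlier results of these data known. Gene positions are from GENCODE M21 (GRCm38), and 7 of 9 members had a RefSeq promoter. The 54 compared libraries held 4262403 to 52402604 counts, and a level of 1 CPM rests on 4 to 52 counts, which limits the precision in fat.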

Additional observations from a re-analysis of the deposited data

Results flagged for a closer look

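In tissues that entered no comparison above, 4 of 72 combinations of a member and a pair of groups had every library of the test temperature above every 22 °C library, and 4 had every one below, counting cases where each library of the higher group held more than 3 counts. Over all genes of these pairs 3.42% were above and 3.28% below in this way. Quadriceps at 10 °C and at 34 °C was set against the same 6 libraries at 22 °C, whose set the labels do not give. For this tissue the temperatures were therefore not compared within a set. In liver at 10 °C the lowest Ms4a1 value was 0.920 CPM, and the highest at 22 °C was 0.842 CPM. In spinal cord at 10 °C the lowest Cd79a value was 0.556 CPM, against a highest control of 0.487 CPM. In liver of the warm set at 34 °C the lowest Cr2 value was 0.131 CPM against 0.0235 CPM, and the lowest Fcer2a value was 0.262 CPM against 0.258 CPM. Lower were Fcer2a in brain (0.256 to 0.458 CPM at 10 °C, 0.487 to 0.801 CPM at 22 °C), Rag1 in hypothalamus (0.315 to 0.456 CPM and 0.473 to 0.784 CPM) and, in brain of the warm set, Pax5 (0.0190 to 0.0491 CPM at 34 °C, 0.142 to 0.237 CPM at 22 °C) and Vpreb1 (0.0203 to 0.0569 CPM and 0.0664 to 0.162 CPM). At 3 counts or fewer in a library, Ms4a1 in hypothalamus and Igll1 in brain were also higher at 10 °C. None of these was tested.

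In 2 cases every cold library moved one way in a tissue and the opposite way in another. Cd79a differed by 0.43 on the log2 scale in bone marrow and by -1.21 in pgVAT, and this difference was not tested, since the tissues stand in separate tables. Ms4a1 differed by 0.32 in spleen and by -1.11 in pgVAT, a difference not tested for the pair. The joint edgeR test over 5 tissues gave an unadjusted p of 0.602 for Ms4a1. The second cold pgVAT library, with 2.39 CPM of epididymis genes, was below the controls for both genes too, at 1.26 CPM of Cd79a and 2.67 CPM of Ms4a1. Of 18 groups of 4 to 10 libraries checked for a single value far from the others, 0 had such a value.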

How the results depend on the processing

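Over the alternatives that keep all libraries, plus those added after seeing the data, 63 of 68 counts of called members stayed within 1.5 times the value reported, as did 42 of 54 counts with a library left out. A reported 0 that stayed at 0 was scored as unchanged. The reported count was 0 in spleen, in ileum at both temperatures, in iBAT at 10 °C, in ingSAT and in the joint test. These totals therefore say little about how firm the calls are. An adjusted p under 0.05 with no fold limit called 6 members in bone marrow and 0 in pgVAT. Leaving out 1 library gave 0 to 1 members in spleen, 1 to 2 in bone marrow, 0 to 6 in ileum at 34 °C, 0 to 1 in iBAT at 34 °C, 0 to 3 in ingSAT and 0 to 3 in pgVAT, where the value of 0 came without the third 22 °C library and that of 3 without the second 10 °C library. The fit with 6 members in ileum called 659 of 13020 genes lower. That with 3 in ingSAT called 1201 of 13987 genes higher, and that with 3 in pgVAT called 1581 of 15007 genes lower. Without the pgVAT libraries of 10 °C numbered 1 and 3, an alternative chosen after seeing the data, 1 library at 10 °C is left and assumed to vary like the controls, 0 were called, Pax5 was at -1.65 and Cr2 at 0.28. In ileum at 10 °C directions turned without the third 22 °C library, and the log2 difference with a library left out ran from -1.53 to 0.15 for Cd79a, -1.48 to 0.44 for Cd79b, -1.66 to 0.85 for Ms4a1 (also 0.13 without the first 10 °C library), -2.04 to 0.53 for Cr2, -2.28 to 0.26 for Fcer2a and -2.40 to 0.25 for Pax5. In iBAT at 10 °C Cd79a (lowest -0.62) turned to 0.077 and 0.0017 without the second 22 °C or the first 10 °C library, and Cr2 to -0.12 without the third 22 °C library. In pgVAT Cr2 (lowest -0.59) turned to 0.069 and 0.12 without the first 22 °C or the third 10 °C library. With the replicate number as a block, 4 members were called lower in ileum at 10 °C (Cd79a, Cr2, Fcer2a and Pax5) and 0 in pgVAT. The block fit of ileum called 293 of 14081 genes lower. The numbers were taken as pairs in no tissue. Same-numbered libraries deviated together (correlation above 0.1) in 0 of 3 pairs of spleen, 2 of 6 of bone marrow, 2 of 3 of ileum, 1 of 3 of iBAT, 2 of 3 of ingSAT and 2 of 3 of pgVAT. In ileum the correlation was 0.461 for number 1 and 0.468 for number 3. For ileum this check therefore gives no ground to set pairing aside, and whether its libraries were paired is not known. The 34 °C columns carry no matched numbers. Scaling by library size alone moved the median log2 difference of all genes from -0.024 to -0.18 in iBAT at 10 °C. In iBAT at 34 °C it moved from 0.025 to 0.30. The split of higher and lower calls changed from 768 and 926 to 486 and 1491 in iBAT at 10 °C. It changed from 1505 and 887 to 3086 and 408 in iBAT at 34 °C. In ileum at 10 °C it went from 203 and 178 to 159 and 252, and in pgVAT from 663 and 516 to 502 and 727. The cause of these changes was not tested. Depth limits the low values: 1 CPM in the shallowest pgVAT library is 4 counts.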
